A study of Homo sapiens with 6 samples.

Results

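The genes described here code for the subunits, regulators and assembly factors of the proteasome. They were taken from the count table as protein-coding genes whose symbol is PSMA to PSMG followed by a number, together with POMP. This rule found 47 genes of the 30270 in the table, of which 15984 are protein-coding, and it used no measured value. The members fall into the 20S core (14 genes), the 19S cap (17), the immunoproteasome with its PA28αβ activator (5), the assembly factors (8) and other activators or inhibitors (3). PSMA8 and PSMB11, core subunits of testis and thymus, were not analysed here.

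Total RNA depleted of ribosomal RNA was sequenced from HEK 293T cells, an immortalized human embryonic kidney line, without any treatment. The labels gave 3 biological replicates of wild-type cells (WT) and 3 of a TENT3A/B double knockout. TENT3A and TENT3B are TUT4 and TUT7, so this group is named ΔTUT4/7 here. These enzymes add uridines to the 3′ ends of RNA and so mark it for decay. The ΔTUT4/7 cells came from another laboratory as 1 line, so the genotype cannot be told apart from other differences between 2 separately kept lines, and the p-values measure the spread between libraries of 1 line each. The question was which transcripts differ in abundance when both uridylyltransferases are deleted.

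The proteasome degrades proteins that carry ubiquitin chains. Its 20S core is a barrel of outer alpha rings and inner beta rings, and 3 of the beta subunits hold the cutting sites. The 19S cap binds ubiquitin chains, removes them and threads the substrate into the barrel, and its base is driven by a ring of ATPases. Interferon replaces the catalytic subunits with inducible ones, which makes the immunoproteasome that prepares peptides for MHC class I. Dedicated chaperones build the core and the cap base and then leave. When proteasomes are short, the transcription factor NRF1, product of NFE2L1, raises the subunit genes together through antioxidant response elements in their promoters.

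The libraries held 18757228 to 33148937 estimated counts. The count of TUT4 went against the knockout label, at 206 to 216 CPM (counts scaled to a common library size) in WT and 882 to 920 CPM in the libraries labelled ΔTUT4/7 (log2 fold change 2.10 ± 0.04 SE, adjusted p = 7.89e-19). TUT7 was lower there, at 62.6 ± 2.2 CPM in WT and 26.3 ± 1.0 CPM in those labelled ΔTUT4/7 (SD, n = 3; log2 fold change −1.25 ± 0.06, adjusted p = 2.20e-13). An edited gene can still give RNA, so counts alone do not check a knockout, and the group is called the libraries labelled ΔTUT4/7. All 6 markers listed for HEK 293T cells (VIM, KRT8, KRT18, PAX2, NEFL and NEFM) were detected in WT and differed between the groups. They summed to 1785 to 1988 CPM in WT and 1396 to 1410 CPM in the libraries labelled ΔTUT4/7, and NEFM had 879 to 1110 CPM in WT and at most 0.0511 CPM in the others. The 3 markers of other cell types in the table (PECAM1, ALB and DES) were near zero, with sums of 0.281 to 0.613 CPM over all 6 libraries. Their part in the results below was not tested.

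Of the 47 proteasome genes, 46 had enough counts to be tested, and 38 of these were higher in the libraries labelled ΔTUT4/7 (82.6%) while 3 were lower (6.52%). The lower members were PSMD5, PSMD10 and PSMB1. The median log2 fold change of the 46 was 0.51, beside −0.02 over all 23952 genes tested and 0.08 over 12448 well-measured protein-coding genes (mean count at least 50). The comparison changed much of the transcriptome: 28.6% of all tested genes were higher and 29.0% lower, and among the well-measured protein-coding genes these shares were 42.7% and 31.7%. The values of the groups did not overlap for 43 of the 46 members, beside 62.7% of all tested genes and 77.3% of the well-measured ones. A change of 2-fold or more was less frequent, with 4 members higher (PSMB9, PSMD9, PSMA7 and PSMD11) and 1 lower (PSMD5), beside 5.9% and 12.4% of all tested genes. Calls are from edgeR's quasi-likelihood test, adjusted by Benjamini-Hochberg across the whole table, at an adjusted p under 0.05. In bulk RNA, fewer cells of a type and less RNA per cell cannot be told apart.

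**Figure D1:**
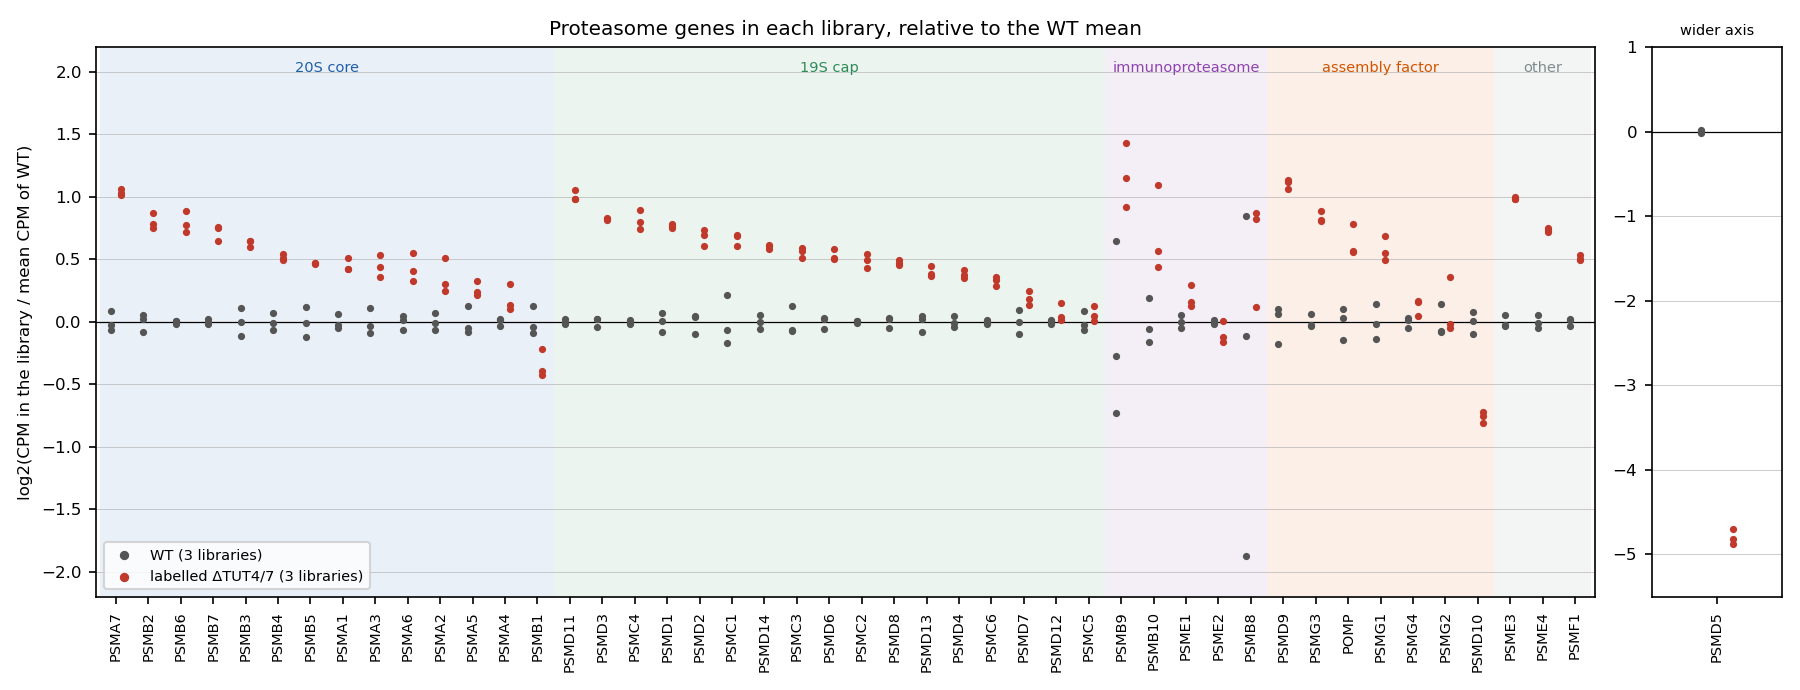
Each point is 1 library, plotted as the log2 ratio of a gene's CPM to its mean CPM in WT, for 46 proteasome genes grouped by complex and, on a wider axis at the right, for PSMD5. The libraries labelled ΔTUT4/7 (red) lie above the WT libraries (grey) for most core and cap genes, while PSMB1, PSMD10 and PSMD5 lie below.

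The 20S core was higher in nearly all of its parts, with 13 of 14 genes higher, 1 lower and a median log2 fold change of 0.46. All 7 alpha ring genes were higher, from 0.18 ± 0.05 (SE) for PSMA4 to 1.04 ± 0.05 for PSMA7, with a median of 0.43. PSMA7, which codes for an alpha subunit and lies on the minus strand at chr20:62136733-62143440 (hg38), stood at 62.3, 55.9 and 57.5 CPM in WT and 119, 122 and 120 CPM in the libraries labelled ΔTUT4/7. The groups were far apart for this gene, a 2.05-fold difference (adjusted p = 3.01e-13). Between PSMA7 and PSMA4 came PSMA1 (0.45), PSMA3 (0.44), PSMA6 (0.43), PSMA2 (0.35) and PSMA5 (0.26). PSMA4 lost its call when libraries were scaled by their totals alone (adjusted p = 0.259).

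The catalytic beta subunits were all higher, with a median of 0.72. PSMB6, which cuts after acidic residues, had a log2 fold change of 0.79 ± 0.06. PSMB7, with trypsin-like activity, had 0.72 ± 0.05. PSMB5, the chymotrypsin-like subunit and main target of proteasome inhibitor drugs, had 0.47 ± 0.06. Among the other beta genes, PSMB2 (chr1:35599541-35641526, minus strand) changed most. Its values were 95.7, 88.8 and 97.9 CPM in WT and 162, 172 and 158 CPM in the libraries labelled ΔTUT4/7, a 1.75-fold difference with no overlap (adjusted p = 1.18e-11). PSMB3 (0.63) and PSMB4 (0.52) were higher as well. PSMB1 was the only core gene that was lower, at 133, 150 and 129 CPM in WT against 102, 118 and 105 CPM (log2 fold change −0.34 ± 0.06, adjusted p = 0.000217). The groups did not overlap for PSMB1, and the gap between the lowest WT library and the highest labelled ΔTUT4/7 was smaller than the spread within WT.

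Levels were also compared between genes per kilobase of transcript. The 14 core genes spanned 21.3 (PSMB2) to 183 (PSMB4) CPM per kb in WT, an 8.62-fold range, with a median of 60.4 CPM per kb. In the libraries labelled ΔTUT4/7 the median was 101 CPM per kb and the range 8.89-fold. PSMB4 had the highest level in both groups, at 183 ± 9 CPM per kb in WT and 262 ± 4 in those labelled ΔTUT4/7 (SD, n = 3). PSMB1 was second in WT at 154 ± 12 CPM per kb and stood at 122 ± 9 in the libraries labelled ΔTUT4/7, where PSMA1 (141), PSMA3 (128) and PSMA7 (125) were above it. The 3 catalytic subunits were closer to each other in level, within a 1.69-fold range in WT and 1.35-fold in those labelled ΔTUT4/7. These levels depend on the transcript taken as the length of the gene.

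**Figure D2:**
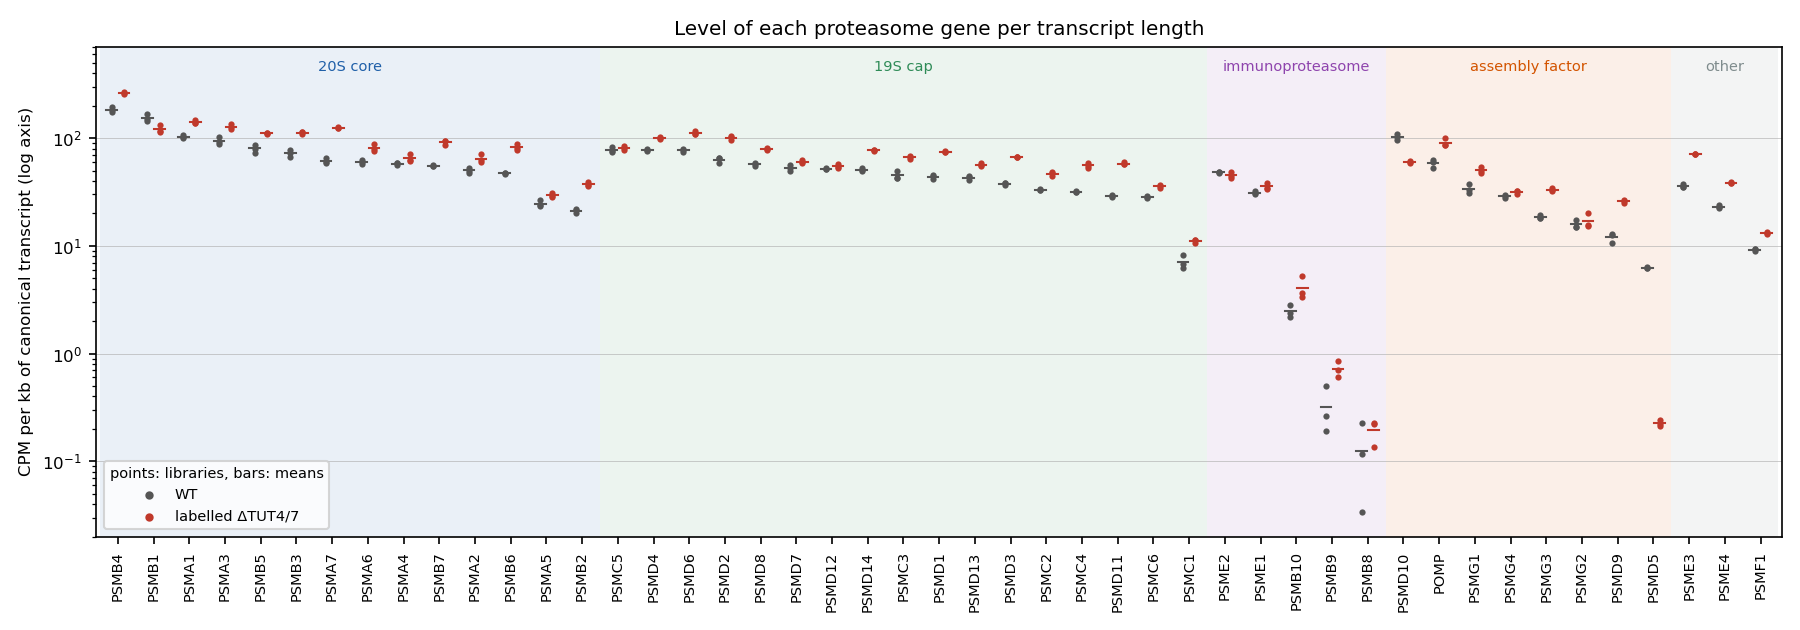
CPM per kb of the canonical transcript on a log axis for all 47 members, ordered by the WT mean within each group. Points are libraries and bars are means of 3. The inducible subunits PSMB8, PSMB9 and PSMB10 lie far below the core and cap genes, and PSMD5 drops from 6.27 to 0.226 CPM per kb.

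The 19S cap had 15 of 17 genes higher, none lower and a median log2 fold change of 0.53. All 17 fold changes were above zero, by DESeq2 and limma too, so none was lower at an unadjusted p under 0.05 in these fits. With libraries scaled by their totals alone, PSMC5 (−0.052) and PSMD12 (−0.044) were below zero, and neither was called. PSMC5 was also below zero with the higher count filter (−0.0016). PSMD11, a lid subunit, changed most. The gene (chr17:32444379-32483319, plus strand) had 110, 111 and 113 CPM in WT and 219, 231 and 220 CPM in the libraries labelled ΔTUT4/7, a 2.01-fold difference (adjusted p = 4.21e-14). PSMD3, another lid subunit (chr17:39980807-39997959, plus strand), had 82.4, 82.5 and 79.0 CPM against 145, 143 and 144 CPM (1.77-fold, adjusted p = 1.68e-12). For both genes the libraries within a group were close to each other and the groups far apart.

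Of the 8 lid genes, 7 were higher. PSMD14, the deubiquitinase that removes chains from substrates, had a log2 fold change of 0.60 ± 0.05. PSMD6 (0.53), PSMD8 (0.47) and PSMD13 (0.40) were in the middle of the range. PSMD7, the partner of PSMD14, had 0.19 ± 0.05 (adjusted p = 0.00496) and lost its call when libraries were scaled by their totals (adjusted p = 0.280) or without ΔTUT4/7 replicate 1 (adjusted p = 0.0506). PSMD12 was not called, at 224, 227 and 228 CPM in WT and 229, 252 and 233 CPM in those labelled ΔTUT4/7 (0.07 ± 0.05, adjusted p = 0.184).

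In the base, 5 of the 6 ATPase genes were higher. They ran from 0.33 ± 0.05 for PSMC6 through PSMC2 (0.49), PSMC3 (0.55) and PSMC1 (0.67 ± 0.08) to PSMC4 (0.81 ± 0.05). PSMC5 was not called, and its groups overlapped at 102, 98.8 and 110 CPM in WT and 113, 107 and 104 CPM in those labelled ΔTUT4/7 (0.06 ± 0.05, adjusted p = 0.327). The large scaffolds PSMD1 (0.77 ± 0.05) and PSMD2 (0.68 ± 0.05) and the ubiquitin receptor PSMD4 (0.38 ± 0.05) were higher. Per kilobase, cap levels in WT ran from 7.05 (PSMC1) to 77.7 (PSMC5) CPM per kb, and the median was 45.0 CPM per kb in WT and 66.2 in the libraries labelled ΔTUT4/7. The level of PSMC1 was divided by the longest transcript of the cap genes, 4390 bases. Its pseudogene PSMC1P1 held 154% of the CPM of PSMC1, so the split of reads between them is uncertain. The part of either in the low level was not tested.

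The inducible subunits were scarce in both groups. PSMB9 (chr6:32844136-32859851, plus strand), the inducible counterpart of PSMB6, had 0.509, 0.269 and 0.196 CPM in WT and 0.874, 0.722 and 0.613 CPM in the libraries labelled ΔTUT4/7. These rest on 23 counts in all of WT and 54 in all of those labelled ΔTUT4/7. The fitted log2 fold change was 1.26 ± 0.45 (adjusted p = 0.0201), the largest rise of any member by fold and the one with the largest error among those that rose. The call was lost without WT replicate 2 (adjusted p = 0.0595), WT replicate 3 (0.0853) or ΔTUT4/7 replicate 1 (0.107) and under DESeq2 (0.0821). PSMB10, the inducible counterpart of PSMB7, had 2.75, 2.15 and 2.32 CPM in WT and 5.15, 3.56 and 3.27 CPM in those labelled ΔTUT4/7 (0.76 ± 0.20, adjusted p = 0.00261). Its first ΔTUT4/7 library was higher than the other 2, and without it the adjusted p was 0.0610. PSMB8, the inducible counterpart of PSMB5, had 5, 1 and 4 counts in WT and 8, 5 and 3 in those labelled ΔTUT4/7, which was under the limit for a test. PSMB8 and PSMB9 overlap on opposite strands, so reads between them could be split wrongly.

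Per kilobase, PSMB8 stood at 0.154% ± 0.109 of PSMB5 in WT and 0.177% ± 0.047 in the libraries labelled ΔTUT4/7 (SD, n = 3). PSMB9 stood at 0.674% ± 0.337 and 0.889% ± 0.187 of PSMB6. PSMB10 stood at 4.44% ± 0.60 and 4.46% ± 1.03 of PSMB7. For all 3 pairs the difference between groups was smaller than the spread between libraries, and both genes of the PSMB9 and PSMB10 pairs were called higher.

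The genes of PA28αβ, a ring that opens the core without ATP, moved little. PSME1 had 31.2, 29.0 and 29.9 CPM in WT and 36.8, 32.7 and 33.5 CPM in the libraries labelled ΔTUT4/7 (0.20 ± 0.07, adjusted p = 0.0171). That call was lost without WT replicate 2 (adjusted p = 0.0541), without ΔTUT4/7 replicate 1 (0.155), with totals as the scale (0.323) and with the higher count filter (0.0810). PSME2, its neighbour on chromosome 14, was not called at 38.1, 38.5 and 37.7 CPM in WT and 38.2, 34.1 and 35.1 CPM in those labelled ΔTUT4/7, where the groups overlapped (−0.09 ± 0.06, adjusted p = 0.270). With totals as the scale PSME2 was called lower (−0.20, adjusted p = 0.0141), as it was with the higher count filter (−0.15, adjusted p = 0.0454).

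The assembly factors split. Of the 5 genes that help to build the core, 3 were higher: PSMG3 (0.83 ± 0.06), POMP (0.64 ± 0.07), which the beta ring needs to form and to dimerize, and PSMG1 (0.58 ± 0.07). PSMG1 works in a pair with PSMG2, which was not called at 16.1, 16.0 and 18.7 CPM in WT and 16.4, 21.8 and 16.8 CPM in those labelled ΔTUT4/7 (0.10 ± 0.11, adjusted p = 0.468). PSMG4, the partner of PSMG3, was not called either (0.13 ± 0.07, adjusted p = 0.143). So in each pair 1 gene was called higher and the other was not, and the difference between partners was not tested.

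The 3 chaperones of the 19S base went apart most. PSMD9 (chr12:121888732-121918297, plus strand) had 28.9, 34.2 and 35.2 CPM in WT and 71.8, 70.9 and 68.3 CPM in the libraries labelled ΔTUT4/7, 2.15-fold higher (adjusted p = 8.16e-12). PSMD10, also called gankyrin (chrX:108084207-108091549, minus strand), had 151, 159 and 141 CPM in WT and 85.4, 90.8 and 88.9 CPM in those labelled ΔTUT4/7 (log2 fold change −0.77 ± 0.05, adjusted p = 3.59e-11). No library of either gene reached into the other group. PAAF1, which chaperones the base too but was outside the naming rule, was lower with 34.9, 37.3 and 32.3 CPM against 19.7, 17.3 and 18.0 CPM (−0.92 ± 0.08, adjusted p = 1.70e-09).

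PSMD5, known as S5b, was nearly lost. It had 417, 557 and 641 counts in WT and 24, 14 and 16 counts in the libraries labelled ΔTUT4/7. In CPM these were 21.2, 21.4 and 20.9 against 0.749, 0.722 and 0.817, which is 27.8-fold lower (log2 fold change −4.79 ± 0.14, adjusted p = 6.44e-17). The WT libraries lay within 1 CPM of each other, and all ΔTUT4/7 libraries were under 1 CPM. PSMD5 was 1 of the 12.4% of tested genes that were at least 2-fold lower.

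PSMD5 lies on the minus strand at chr9:120815496-120842951 (hg38). The stretch before its start is shown because the fall was the largest of any member and because a second gene starts there. CUTALP, a unitary pseudogene on the plus strand, has an annotated transcript start 74 bp from the start of PSMD5, and 5 of its 18 annotated transcripts start within 1 kb upstream. The 250 bases before the PSMD5 start (RefSeq, GRCh38.p14, chr9:120842923-120843172, minus strand, read 5′ to 3′) hold 16 CpG dinucleotides, marked in capitals.
PSMD5: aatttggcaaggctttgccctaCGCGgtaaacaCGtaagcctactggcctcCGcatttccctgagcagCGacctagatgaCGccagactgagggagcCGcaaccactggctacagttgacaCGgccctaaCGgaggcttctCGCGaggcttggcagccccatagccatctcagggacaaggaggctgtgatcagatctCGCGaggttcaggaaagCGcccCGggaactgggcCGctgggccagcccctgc

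CUTALP fell together with PSMD5, from 10.5, 10.5 and 11.0 CPM in WT to 1.44, 1.03 and 1.07 CPM in the libraries labelled ΔTUT4/7 (−3.14 ± 0.16, adjusted p = 4.52e-13). The bodies of both genes overlap on opposite strands, and whether the counting used strand is not given in the sources used here, so reads of the overlap cannot be assigned with certainty. Other genes around PSMD5 were lower by less. On the far side of CUTALP, PHF19 had −0.52 ± 0.07, TRAF1 −1.23 ± 0.25, the complement gene C5 −2.35 ± 0.13 and CNTRL −0.89 ± 0.06. On the other side B3GNT10 had −0.48 ± 0.10 and MEGF9 −0.37 ± 0.06, while FBXW2 (0.15 ± 0.04) and CDK5RAP2 (0.23 ± 0.05) were higher. Beyond CNTRL, GSN-AS1 (−1.82 ± 0.25), GSN (−0.83 ± 0.11) and STOM (−0.24 ± 0.05) were lower, while RAB14 (0.22 ± 0.05) and DAB2IP (0.21 ± 0.07) were higher. Within 1 Mb, AL359644.1 (−3.68 ± 0.59) and GGTA1 (−3.88 ± 0.89) fell by more than CUTALP but had few counts. AL359644.1 had at most 33 counts in any library. GGTA1 had 9, 18 and 9 counts in WT and 2, 0 and 0 in those labelled ΔTUT4/7. The 13 neighbours of PSMD5 had a median of −0.48, and the difference between PSMD5 and that median was −4.31 on the log2 scale.

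**Figure D3:**
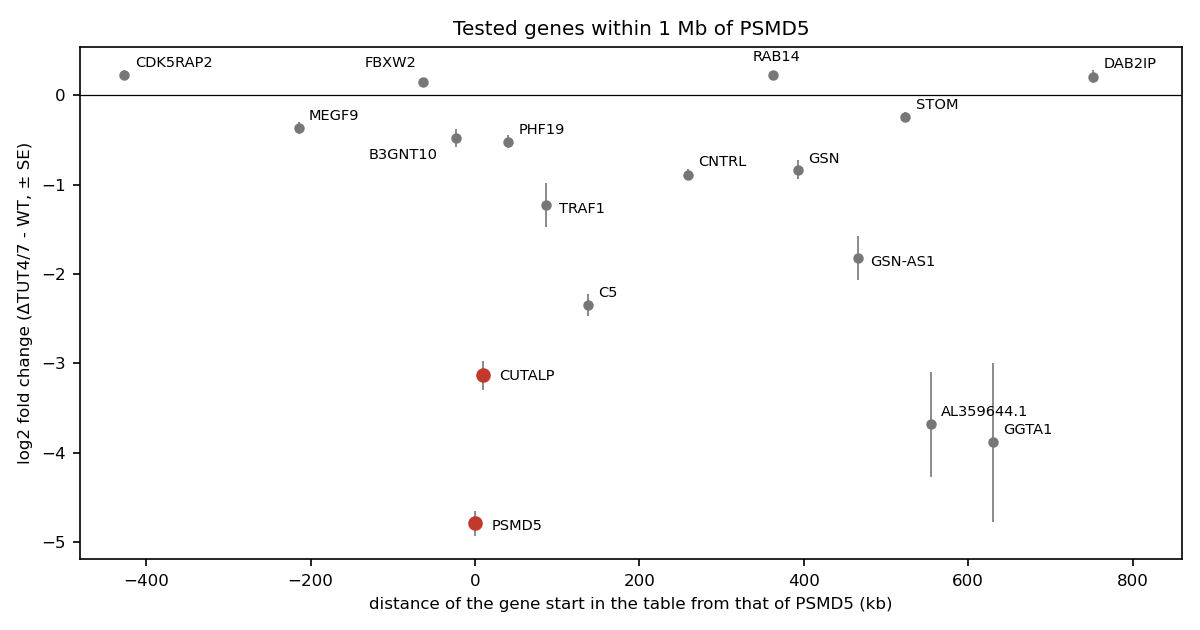
Log2 fold change (ΔTUT4/7 minus WT, ± SE) of the tested genes within 1 Mb of PSMD5 against the distance of their start from that of PSMD5 in kb. PSMD5 (red) is lowest, with CUTALP (red) beside it. AL359644.1 and GGTA1, which had few counts, lie below CUTALP. C5, GSN-AS1 and TRAF1 are lower to a smaller degree, and FBXW2 and RAB14 lie just above zero. The point for GGTA1 rests on 2 counts in the libraries labelled ΔTUT4/7.

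The other regulators were all higher. PSME3, the PA28γ activator of the nucleus (chr17:42824385-42843760, plus strand), had 111, 119 and 112 CPM in WT and 228, 225 and 225 CPM in the libraries labelled ΔTUT4/7, a 1.98-fold difference (adjusted p = 5.94e-14). PSME4, which codes for the PA200 activator (chr2:53864069-53970993, minus strand), had 167, 174 and 162 CPM against 275, 282 and 278 CPM (1.66-fold, adjusted p = 5.32e-12). PSMF1, an inhibitor of the core in vitro, had a log2 fold change of 0.51 ± 0.05. In these 3 genes the groups did not overlap, and the highest WT library of PSME3 was far under the lowest ΔTUT4/7 library.

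Genes of a chromosomal region can share a direction, so each member was set beside the tested genes that start within 1 Mb of it and average at least 50 counts. Of the 46 members, 44 (95.7%) lay above the median of their neighbours, the exceptions being PSMD5 and PSMG2. Among 12352 other well-measured protein-coding genes, 51.6% did. The median difference from the neighbours was 0.51 for the core, 0.57 for the cap, 0.50 for the immunoproteasome, 0.33 for the assembly factors and 0.53 for the other regulators. Both other lower members lay above genes that were lower still. PSMD10 had −0.77 where its 16 neighbours on the X chromosome had a median of −1.26, and PSMB1 had −0.34 where its 8 neighbours near the end of chromosome 6 had −0.72. The 2 cap genes not called also lay among lower genes, with neighbour medians of −0.56 for PSMD12 and −0.30 for PSMC5. So did cap genes that were called higher, with neighbour medians of −0.53 for PSMD7, −0.30 for PSMD14 and −0.24 for PSMD6. At the other end, PSMD9 and PSMA7 lay among higher genes, with neighbour medians of 0.82 (31 genes) and 0.67 (18 genes). For PSMD11 the neighbour median was 0.10, and for PSME3 also 0.10. Across the members, log2 fold changes and neighbour medians had a Pearson r of 0.49 and a Spearman rho of 0.61 (n = 46), and without PSMD5 0.73 and 0.58 (n = 45). Some members share neighbours, and all values come from the same 6 libraries.

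**Figure D4:**
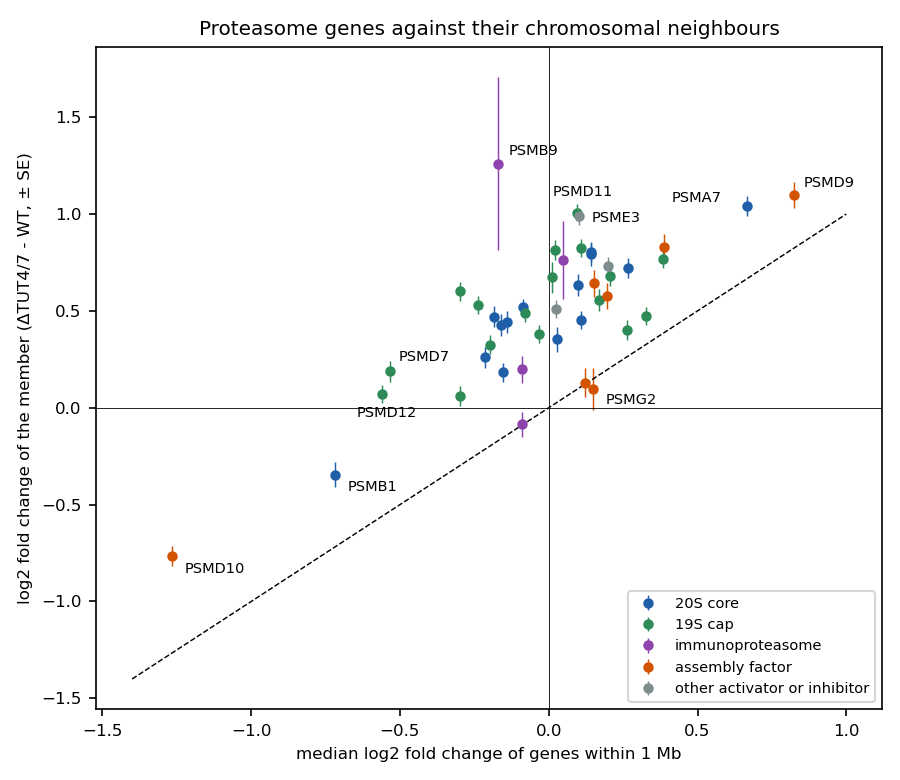
Log2 fold change of each tested member (ΔTUT4/7 minus WT, ± SE) against the median log2 fold change of genes within 1 Mb, with PSMD5 left off for scale. Nearly all members lie above the dashed line of equal change, including PSMD10 and PSMB1, which are below zero.

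Other genes that work with the proteasome were taken from fixed lists of 41 genes, and all 41 were tested. The lists were chosen with earlier results of these data known. Of these, 24 were higher, 5 lower and 12 not called, with a median log2 fold change of 0.26, beside the 42.7% higher and 31.7% lower among the well-measured protein-coding genes. The number lower was 3 without WT replicate 2, without ΔTUT4/7 replicate 2 or without ΔTUT4/7 replicate 3. With libraries scaled by their totals alone, 20 were higher and 6 lower. ADRM1, a ubiquitin receptor of the cap whose name keeps it out of the rule, had 25.4, 22.5 and 22.6 CPM in WT and 67.6, 67.9 and 59.9 CPM in the libraries labelled ΔTUT4/7 (1.48 ± 0.07, adjusted p = 1.02e-13). It lies on chromosome 20 at 62302093-62308862, within 1 Mb of PSMA7. SEM1, the smallest lid subunit, was not called (0.01 ± 0.09).

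Among 14 factors that bind the proteasome or carry substrates to it, 11 were higher and PAAF1 was lower, with a median of 0.37, where 42.7% of well-measured protein-coding genes were higher. The shuttle RAD23B (0.73 ± 0.05) and the deubiquitinase USP14 (0.66 ± 0.05), which trims chains at the cap, had the largest rises. The ubiquitin gene UBB had 374, 376 and 389 CPM in WT and 609, 590 and 606 CPM in those labelled ΔTUT4/7 (0.66 ± 0.04), with no overlap between the groups. Of the enzymes that activate ubiquitin, UBA1 was higher (0.17 ± 0.05) and UBA6 lower (−0.28 ± 0.05).

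Of 9 genes listed for the NRF1 route, 6 were higher and none lower, with a median of 0.19. Of well-measured protein-coding genes, 42.7% were higher and 31.7% lower. The list also held NFE2L2, which codes for the related factor NRF2 and was not called (0.08 ± 0.05), and KEAP1, which restrains NRF2. KEAP1 was among the 6 called higher (0.19 ± 0.06), and its value was the median. All 9 fold changes were above zero by edgeR, DESeq2 and limma, so none was lower at an unadjusted p under 0.05 in these fits. None of these fits scaled libraries by their totals alone. NGLY1, which removes sugars from NRF1 so that it can act, had 38.6, 42.3 and 36.0 CPM in WT and 74.9, 75.6 and 72.8 CPM in the libraries labelled ΔTUT4/7 (0.94 ± 0.06, adjusted p = 2.56e-11). MAFK (0.85 ± 0.14) and MAFG (0.48 ± 0.07), small MAF proteins that pair with NRF1 on DNA, were higher too. The transcript of NRF1 itself, NFE2L1, had 138, 133 and 142 CPM against 150, 152 and 153 CPM (0.14 ± 0.04, adjusted p = 0.0121). No library of one group reached the other for it, though the gap was small. Scaling by library totals shifted the median of all genes by −0.11, which is close to the size of the NFE2L1 rise. The fold changes of NFE2L2 (0.08) and VCP (0.07), neither of them called, were smaller than that shift. Of the 10 partners of the immunoproteasome in interferon signalling and antigen presentation, 4 were higher, 2 lower and 4 not called, which is near the 42.7% higher of well-measured protein-coding genes. NLRC5, which switches on MHC class I genes, had 1.07 ± 0.19, IRF8 0.68 ± 0.14 and the antigen-loading factor TAPBP −0.68 ± 0.08. Mean levels in WT and the libraries labelled ΔTUT4/7 were 1.92 and 4.06 CPM for NLRC5 and 3.82 and 6.10 CPM for IRF8.

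**Figure D5:**
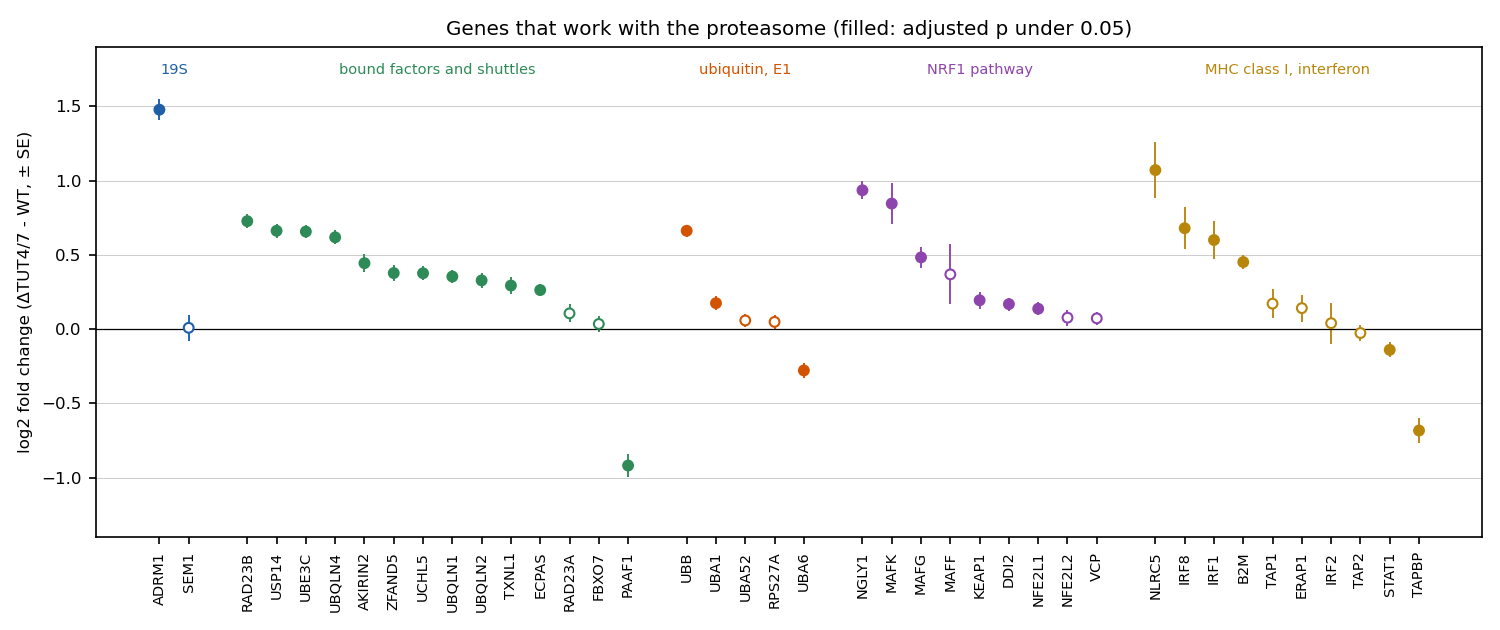
Log2 fold change (ΔTUT4/7 minus WT, ± SE) of genes from the 5 lists that work with the proteasome, without the gene not reported here. Filled points passed an adjusted p of 0.05, open points did not. ADRM1 is highest and PAAF1 lowest.

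Promoters were read because so many members were higher together. The RefSeq table (GRCh38.p14) held windows from 250 bases before to 50 after the start for 41 of the 47 members, the others being PSMA7, PSMB1, PSMB6, PSMB7, PSMD4 and PSMG3. In 9 of the 41 the window lay over 500 bases from the gene start of the count table, so it belongs to another annotated start. The core of the antioxidant response element, TGACNNNGC on either strand, was in 13 of the 41 windows (31.7%), in 14.9% of 12585 windows of other tested genes and in 15.1% of 9987 windows of other well-measured protein-coding genes. CCAAT on either strand, which can share end bases with that core, was in 18 of the 41 (43.9%), beside 36.7% and 37.5%. The 13 members with the core had a median log2 fold change of 0.63 and 9 of them were higher. Of the 28 without it, 27 were tested, with a median of 0.47 and 24 higher. A match to these letters is not a binding site.

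The stretches around the match are shown for 4 members that were higher and for PSMD12, which was not called. PSMG2 and PSME2, not called either, have a match that is not shown, so the proportion shown is not that of all members with a match. PSMD3 and PSMD9 have 2 matches in their windows, and the first of them from the upstream end is shown. Capitals mark the match shown, and each has 15 bases on either side, read along the gene's strand. They lie at chr17:39980755-39980793 (PSMD3, plus strand), chr12:121888626-121888664 (PSMD9, plus), chr2:53971004-53971042 (PSME4, minus), chr17:38752622-38752660 (PSMB3, plus) and chr17:67366719-67366757 (PSMD12, minus).
PSMD3: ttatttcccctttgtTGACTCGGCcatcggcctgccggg
PSMD9: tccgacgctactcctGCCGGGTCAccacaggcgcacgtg
PSME4: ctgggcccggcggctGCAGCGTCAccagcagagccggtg
PSMB3: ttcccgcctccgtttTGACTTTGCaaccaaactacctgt
PSMD12: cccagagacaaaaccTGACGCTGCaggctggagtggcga
In PSMD3 and PSME4 the match shown begins 37 and 34 bases before the start, in PSMB3 104, in PSMD9 149 and in PSMD12 165. PSMD3, PSMB3 and PSMD12 carry it along the gene's strand, PSMD9 and PSME4 on the opposite strand. PSMD5 also has a match, within the 250 bases printed above.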

How the data were processed

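Reads were mapped by the authors to hg38 using STAR 2.7.3a, and they deposited estimated counts per Ensembl gene from the expectation-maximisation model of Partek Flow 10.0.22. Strand use is not given in the sources used here. The authors' table of their own comparison (p-values, ratios and fold changes) was not used. Counts were rounded, and the 23952 genes whose largest count was above 12 were scaled with TMM and passed to edgeR 4.0.16 (R 4.3.3) for its robust quasi-likelihood F-test with group as sole factor. The error given for a log2 fold change is a standard error from the F statistic, and the biological coefficient of variation was 6.44%. CPM is relative to the TMM-scaled library. Levels per kb use the length of the GENCODE canonical transcript. The stop column lay 1 base past annotated ends, so ends have it taken off. The steps were tested on simulated data.

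Members and lists were chosen with earlier results of these data known. Values in every library are given for the 2 called members with the largest change in each group, tested immunoproteasome genes and 19S base chaperones. Of the pathway lists, they are given for ADRM1, PAAF1, UBB and NGLY1. Most other called pathway genes that are named have log2 fold changes or group means only. Further genes shown in full were chosen after their values were seen. The values of 1 gene of the pathway lists are not reported here, though list counts include it. DESeq2 1.42.0, limma 3.58.1 on log2(CPM + 1), other scalings and filters, a block for the replicate number, omission of each library, subtraction of neighbours and, added after seeing the data, of a trend with GC content and length were alternatives. Library totals were between 18757228 and 33148937 counts. The part of counting error in the errors at low counts was not tested.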

Additional observations from a re-analysis of the deposited data

How the results depend on the processing

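The counts of members higher (38) and lower (3) stayed within 1.5 times under every alternative run for them. Scaling by library totals shifted the median of all genes by −0.11, and the members' median minus that of all genes was 0.53 with it as with TMM. With totals, the median log2 fold change was 0.40 for all members, 0.35 for the core, 0.42 for the cap, 0.24 for the assembly factors and 0.62 for the other regulators. With genes of a mean count of 50 or more it was 0.45, 0.40 and 0.47 for all members, core and cap, 0.67 for the other regulators and 0.14 for the immunoproteasome, where PSMB9 then dropped out. Subtracting neighbours gave 0.51 for the core, 0.57 for the cap and 0.53 for the other regulators. It turned PSMB1 to 0.37 and PSMD10 to 0.50. Subtracting the trend with GC content and length, chosen after seeing the data, gave 0.45 for all members, 0.40 for the core, 0.47 for the cap and 0.88 for the other regulators. The cause of these shifts was not tested. Genes not called also changed sign: PSMC5 to −0.052 with totals and −0.0016 with the mean count of 50, PSMD12 to −0.044 and PSMG2 to −0.018 with totals. Leaving out 1 library at a time gave medians of 0.50 to 0.55 for the cap and 0.71 to 0.76 for the other regulators, gave −0.041 (without ΔTUT4/7 replicate 2) to 0.18 for PSMG2, and left 3 to 5 pathway genes lower and 34 to 38 members higher. The replicate numbers did not pair the libraries: deviations of same-numbered libraries correlated at 0.0519, −0.0115 and −0.0222. With the number as a block, 38 members were higher, 3 lower and the median was 0.51, and 13678 genes in all were called, beside 13813 without it. Counts were lowest for PSMB8 (10 in all of WT, 16 in those labelled ΔTUT4/7) and PSMB9 (23 and 54).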

Other observations

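Of 4 antisense genes named after a member, 2 were called, both lower, beside 28.6% higher and 29.0% lower of all tested genes. Their difference from the sense gene was not tested. PSMA3-AS1 was lower (78.6 ± 4.2 CPM in WT, 55.5 ± 2.2 in the libraries labelled ΔTUT4/7, SD, n = 3; log2 fold change −0.50 ± 0.06), while PSMA3 was higher. PSMG3-AS1 had 6.41, 5.35 and 6.03 CPM in WT and 1.22, 1.39 and 1.63 CPM in ΔTUT4/7 (−2.08 ± 0.18, adjusted p = 2.84e-09 by edgeR), while PSMG3 was higher. PSMB8-AS1 (−0.07 ± 0.51) and PSMD6-AS2 (−0.18 ± 0.11) were not called. All 4 overlap their sense gene, and without strand in the counting the reads of the overlap cannot be told apart.

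Of 24 pseudogenes named after a member, 13 were tested, 2 were higher and 1 was lower, beside 28.6% and 29.0% of all tested genes. Of the 13, 2 held over 5% of the CPM of their parent, PSMC1P1 (154%) and PSME2P2 (9.07%, not called). PSMC1P1 had 45.5, 49.5 and 54.4 CPM in WT and 69.2, 78.4 and 72.0 CPM in ΔTUT4/7 (0.55 ± 0.07), beside 0.67 for PSMC1. PSMD10P1, at 3.17% of the CPM of its parent, was lower (−0.80 ± 0.17), as was PSMD10. Processed copies share sequence with their parents, so these values may hold reads of the parent.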
